A study of Homo sapiens with 3 samples.

Results

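TSC22D3, with 9 further genes of the glucocorticoid receptor and FOXO pathways, was followed in Molm13, a line grown from an acute myeloid leukemia with a FLT3 internal tandem duplication (FLT3-ITD). The cells were exposed for 6 h to the vehicle DMSO, to 50 nM pyrvinium or to 100 nM pyrvinium, an anthelmintic drug given as its pamoate salt, and 1 RNA library was sequenced for each condition. All cells were asynchronous and grew in RPMI with fetal bovine serum. TSC22D3 was chosen by its counts in these same libraries, in which it had a large rise with dose. The other 9 genes (FKBP5, KLF9, PER1, NR3C1, FOXO1, FOXO3, FOXO4, PIK3IP1 and IRS2) were listed for their place in the same pathways, to ask which upstream program the pattern resembles. These 10 genes were taken from 25702 genes listed by Entrez identifier, and 9 of the 10 passed a filter (10 or more counts in any of the libraries), as did 12879 genes in all. FOXO1 did not pass.

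With 1 library per condition, no difference below has a replicate check, and no p-value was computed. Each log2 fold change compares library-size-scaled counts after adding 0.5 counts, and carries a 95% exact (Clopper-Pearson) interval that covers counting error only. The libraries held 23165771 counts for DMSO, 22677038 for 50 nM and 24075123 for 100 nM. Over all tested genes the median change (log2) was -0.0023 at 100 nM and 0.00071 at 50 nM, and 49.6% and 50.2% of them lay above DMSO. All 9 markers fixed for a myeloid leukemia line, including FLT3, CD33 and SPI1, passed the filter, with at least 57 counts each in every library, and together took 1011, 1106 and 1157 CPM (scaled counts per 1000000) in DMSO, 50 nM and 100 nM. FLT3 alone, with 6304, 9012 and 11181 counts, carried that difference, and the other 8 markers together took 739, 708 and 693 CPM. The part of these differences in the results below was not tested. Of 9 markers of lymphoid, erythroid, epithelial and stromal cells, 3 were at 0 in every library, and the whole list took at most 1.90 CPM in any library. The 2 that passed were CD3D (26, 18 and 13 counts) and HBB (0, 16 and 0 counts). In bulk RNA, fewer cells that express a gene and less RNA per cell cannot be told apart.

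The glucocorticoid receptor, encoded by NR3C1, is held in the cytoplasm by a chaperone complex until a steroid binds, and then enters the nucleus and acts on glucocorticoid response elements. TSC22D3, also called GILZ, FKBP5, KLF9 and PER1 are among its most widely shared induced targets, and FKBP5 feeds back on the receptor as a co-chaperone. FOXO transcription factors act when PI3K and AKT signalling is low, because AKT phosphorylates them and keeps them out of the nucleus. IRS2 and PIK3IP1, an adaptor and an inhibitor of that signalling, are known FOXO targets, and TSC22D3 has been described as a FOXO3 target in lymphoid cells.

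All 10 genes were found among the RefSeq promoter windows of build GRCh38.p14, which hold 250 bases before and 50 bases after each transcript start, in 24 windows. The full glucocorticoid response element, written GNACANNNTGTNC, was searched on both strands and lay in none of the 24 windows and in 0.390% of all 35116 windows. The short glucocorticoid receptor motif AGAACA, which the full element need not contain, lay in 3 of the 24 windows, of FKBP5 and PIK3IP1, and in 14.8% of all windows. The FOXO motif TGTTTAC lay in 4 of the 24 windows, of TSC22D3, FOXO4, NR3C1 and PIK3IP1, and in 3.42% of all windows. A gene with more windows has more chances of a match. The composite ATF4 and C/EBP motif TGATGNAA and the cAMP response element TGACGTCA lay in none of the 24 windows, against 3.62% and 1.85% of all windows. A match is a description of the letters and not a bound site. For motifs as rare as these, none in 24 windows is unremarkable, and sequence outside the windows was not searched. An absence therefore does not show that a gene lacks the element.

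The windows of 4 genes are shown because they hold these letters in genes whose counts went different ways. The FOXO motif and the short glucocorticoid receptor motif are in capitals on either strand. NR3C1, slightly higher in both treated libraries, also holds a FOXO motif, in a window that is not shown. The TSC22D3 window, on the minus strand at chrX:107717013-107717312, belongs to an internal start, and its FOXO motif spanned bases -147 to -141 of that start, counting the first transcribed base as 1. In PIK3IP1 (minus strand, chr22:31292439-31292738) the FOXO motif spanned transcribed bases 17 to 23 and the short glucocorticoid receptor motif bases 25 to 30. In FOXO4 (plus strand, chrX:71095601-71095900) the FOXO motif spanned transcribed bases 24 to 30 in reverse complement. In FKBP5 (minus strand, chr6:35728534-35728833) the short glucocorticoid receptor motif covered bases 1 to 6 of the transcript.
TSC22D3: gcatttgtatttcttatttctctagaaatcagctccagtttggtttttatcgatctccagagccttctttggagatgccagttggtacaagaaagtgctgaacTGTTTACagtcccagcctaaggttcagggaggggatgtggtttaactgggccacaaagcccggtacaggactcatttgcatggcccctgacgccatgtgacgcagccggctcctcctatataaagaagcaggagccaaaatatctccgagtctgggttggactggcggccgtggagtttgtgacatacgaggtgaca
PIK3IP1: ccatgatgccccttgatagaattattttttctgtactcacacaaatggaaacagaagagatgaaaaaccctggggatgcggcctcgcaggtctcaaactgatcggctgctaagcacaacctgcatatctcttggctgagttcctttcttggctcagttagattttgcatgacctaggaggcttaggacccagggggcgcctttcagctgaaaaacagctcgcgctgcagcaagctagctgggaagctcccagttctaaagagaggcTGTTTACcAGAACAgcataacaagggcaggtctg
FOXO4: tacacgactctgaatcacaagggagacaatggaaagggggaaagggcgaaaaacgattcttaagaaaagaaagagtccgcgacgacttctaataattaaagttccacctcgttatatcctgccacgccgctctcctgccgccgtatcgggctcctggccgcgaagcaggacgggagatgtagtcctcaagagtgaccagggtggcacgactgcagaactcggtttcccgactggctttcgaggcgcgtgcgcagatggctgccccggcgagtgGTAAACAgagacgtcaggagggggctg
FKBP5: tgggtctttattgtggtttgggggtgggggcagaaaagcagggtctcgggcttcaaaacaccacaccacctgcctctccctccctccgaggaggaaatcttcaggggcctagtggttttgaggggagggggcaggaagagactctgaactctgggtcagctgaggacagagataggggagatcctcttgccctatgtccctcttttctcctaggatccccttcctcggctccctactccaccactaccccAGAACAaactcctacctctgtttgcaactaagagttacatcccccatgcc

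TSC22D3 rose at each dose, and was the only gene of the 9 to reach 2-fold. TSC22D3 (Entrez 1831, minus strand of chromosome X, hg19 106956451 to 107019017, 5 exons), which encodes a leucine zipper protein that mediates anti-inflammatory effects of glucocorticoids, had 112 counts under DMSO, 346 under 50 nM and 592 under 100 nM. The DMSO library was thus lowest, the 100 nM library highest, and the 50 nM library between them. The log2 fold change was 1.66 at 50 nM (counting interval 1.35 to 1.98) and 2.34 at 100 nM (2.05 to 2.65), which is 5.06-fold at 100 nM (4.15 to 6.28). Between the 100 nM and the 50 nM library the log2 fold change was 0.68 (0.49 to 0.88), so the intervals of each step lay above 0. Among the 11049 genes that reached 50 counts in any library, TSC22D3 had the 4th largest rise at 100 nM and the 6th largest at 50 nM. Among all 12879 tested genes its rise at 100 nM was the 32nd largest, so the rank depends on the count filter. Because TSC22D3 was selected on this rise, these values are a description.

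The counts of TSC22D3 are per gene and do not separate its transcript starts. The listed exons span 2808 bases, and 71 of these are also exonic in NCBP2L on the opposite strand in the GENCODE annotation of GRCh37. The library kit was strand-specific, but the sources used here do not give the strand setting of the counting, so reads in those 71 bases are uncertain.

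**Figure D1:**
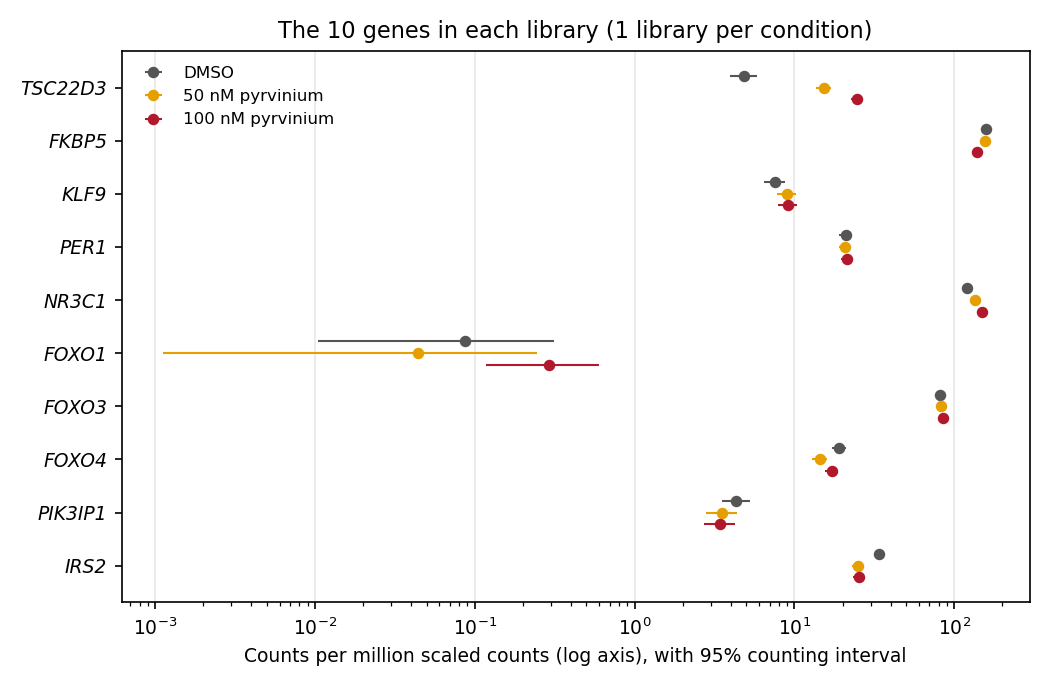
Scaled counts in CPM (log axis) of the 10 genes in the DMSO, 50 nM and 100 nM libraries, 1 point per library with its 95% counting interval. TSC22D3 moved from 4.83 to 15.3 and 24.6, while FOXO1 stayed below 0.3 in every library and the other 8 genes each kept their 3 points within 1.5-fold.

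Per kilobase of gene length, the level of TSC22D3 was 1.72 CPM per kilobase in DMSO, 5.44 at 50 nM and 8.74 at 100 nM. In the DMSO library it was 8th of the 10 genes on this scale, with a counting interval that overlapped those of its neighbours PIK3IP1 (1.74) and KLF9 (1.44). At 50 nM and at 100 nM it was 4th, below FOXO3 and above every remaining gene, with intervals that did not overlap its neighbours. NR3C1, FKBP5 and FOXO3 held the first 3 places in every library, with levels in DMSO of 15.2, 14.9 and 10.8. In DMSO the intervals of NR3C1 and FKBP5 overlapped, whereas at 100 nM they did not, with NR3C1, at 18.9, above FKBP5.

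The receptor itself was slightly higher in the treated libraries. NR3C1 (Entrez 2908, chromosome 5, hg19 142657496 to 142815077, 11 exons) had 2779 counts in DMSO, 3037 at 50 nM and 3584 at 100 nM. The log2 fold change of NR3C1 was 0.16 (0.09 to 0.24) at the lower dose and 0.31 (0.24 to 0.38), or 1.24-fold, at the higher. The 3 libraries were ordered with dose and the intervals against DMSO lay above 0, but both changes stayed below 2-fold.

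The other glucocorticoid receptor targets did not move with TSC22D3. FKBP5 (Entrez 2289, 13 exons on chromosome 6 from 35541362 to 35696360), the co-chaperone, had 3675 counts in DMSO, 3510 at 50 nM and 3332 at 100 nM. The 100 nM library was the lowest, at a log2 fold change of -0.20 (-0.27 to -0.13), against -0.03 (-0.10 to 0.04) at 50 nM. KLF9 (Entrez 687, 2 exons on chromosome 9 from 72999513 to 73029573), a Krüppel-like transcriptional repressor, had 174, 202 and 219 counts in the same order. Its log2 fold changes of 0.25 and 0.27 had intervals that reached below 0, from -0.05 to 0.55 at 50 nM and from -0.02 to 0.57 at 100 nM. PER1 (Entrez 5187, 23 exons on chromosome 17 from 8043788 to 8055753), a component of the circadian clock, had 485, 470 and 514 counts. Its 3 values lay close together, with log2 fold changes of -0.01 (-0.20 to 0.18) and 0.03 (-0.16 to 0.21), so that a rise of more than 1.16-fold at 100 nM lies outside the counting interval.

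Of the FOXO genes, FOXO3 and FOXO4 were expressed and FOXO1 was barely detected. FOXO3 (Entrez 2309, 4 exons on chromosome 6 from 108881026 to 109005971) had 1885 counts in DMSO, 1875 at 50 nM and 2053 at 100 nM, with log2 fold changes of 0.03 (-0.07 to 0.12) and 0.07 (-0.02 to 0.16). FOXO3B, a near-identical copy on chromosome 17, had 191, 176 and 209 counts, and reads of the 2 copies could have been split between them. FOXO4 (Entrez 4303, 3 exons on chromosome X from 70315999 to 70323384) had 441, 327 and 413 counts. For FOXO4 the 50 nM library was the lowest, at a log2 fold change of -0.40 (-0.61 to -0.19), against -0.15 (-0.35 to 0.05) at 100 nM. FOXO1 (Entrez 2308, 3 exons on chromosome 13 from 41129801 to 41240734) had 2, 1 and 7 counts, and a floor of 3 counts lies between these values. The log2 ratio of FOXO1 at 100 nM had a counting interval from -0.64 to 5.05, so a change was not detectable at this depth.

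The FOXO targets IRS2 and PIK3IP1 were lower or not separated from DMSO. IRS2 (Entrez 8660, 2 exons on chromosome 13 from 110406184 to 110438914), an adaptor of the insulin receptor, had 789 counts in DMSO, 567 at 50 nM and 611 at 100 nM. DMSO was the highest of the 3 libraries and the treated libraries lay close together, with log2 fold changes of -0.44 (-0.60 to -0.28) and -0.43 (-0.58 to -0.27). PIK3IP1 (Entrez 113791, 6 exons on chromosome 22 from 31677579 to 31688520), which inhibits the catalytic subunit of PI3K, had 100, 80 and 82 counts. Its log2 fold changes of -0.29 (-0.73 to 0.15) and -0.34 (-0.78 to 0.09) pointed the same way as those of IRS2, but the intervals reached above 0.

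**Figure D2:**
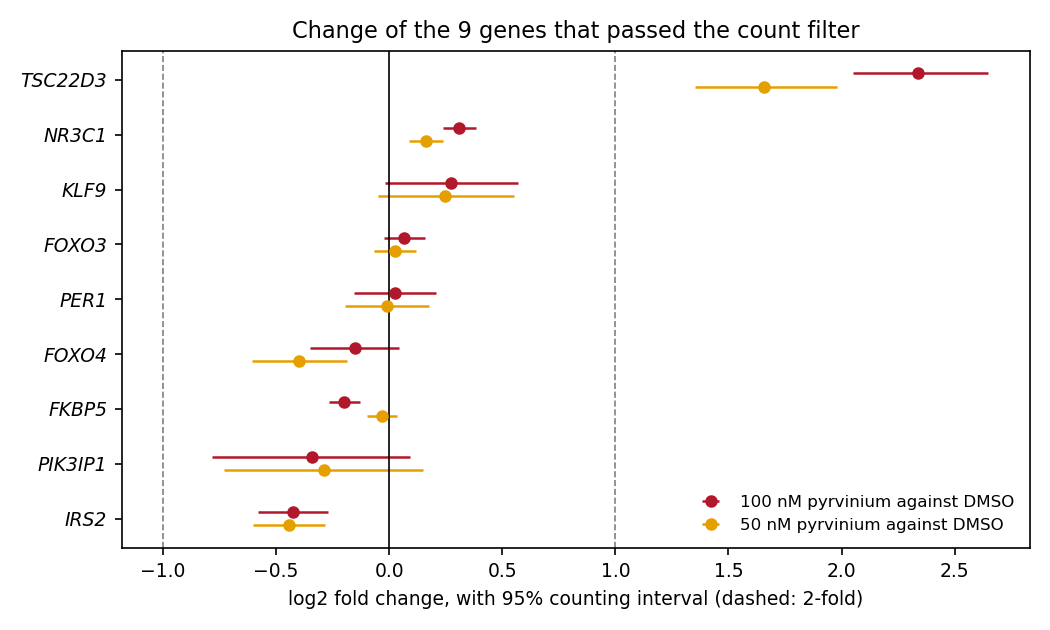
Log2 fold change of the 9 genes that passed the count filter (x axis) at 50 nM and at 100 nM against the same DMSO library, with 95% counting intervals and dashed lines at 2-fold. TSC22D3 lies at 1.66 and 2.34, and the other 8 genes lie between -0.44 and 0.31.

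Counted over the 9 genes, 1 was at least 2-fold higher at 100 nM and 0 were at least 2-fold lower, where 2.84% and 1.0% of all tested genes were. At 50 nM the same 1 gene, TSC22D3, was at least 2-fold higher and 0 were lower, where 1.81% and 0.916% of all tested genes were. Of the 366 tested genes that were 2-fold higher at 100 nM, 249 had under 50 counts in every library. The interval lay above 0 for 2 of the 9 genes at 100 nM (TSC22D3 and NR3C1) and below 0 for 2 (FKBP5 and IRS2), against 24.0% and 25.3% of all tested genes. At 50 nM it lay above 0 for TSC22D3 and NR3C1 and below 0 for FOXO4 and IRS2, against 18.6% and 18.5%. Without TSC22D3, the other 8 genes had a median of -0.06 (log2) at 100 nM and -0.02 at 50 nM. Since TSC22D3 was chosen for its rise in this contrast, nothing is read from these counts.

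A wider list of 38 genes induced through the glucocorticoid receptor, 5 of them among the 10 genes, was examined next, and 22 passed the filter. At 100 nM, 10 of the 22 were above and 12 below DMSO, with a median log2 fold change of -0.09 against -0.0023 over all tested genes. TSC22D3, DDIT4 and KLF15 rose at least 2-fold and 0 of the 22 fell as much, where 2.84% and 1.0% of all tested genes did so, and TSC22D3 itself was chosen for its rise. DDIT4, an inhibitor of mTORC1 that is also an ATF4 target, had 2335, 4313 and 7879 counts and rose by 1.70 (log2) at 100 nM (1.63 to 1.76). KLF15, another Krüppel-like factor named after its values were seen, had 2, 14 and 7 counts and an interval from -0.64 to 5.05. The metallothionein genes MT1X and MT2A, which bind metals, were lower, with 1238, 927 and 755 counts for MT1X and 617, 492 and 474 for MT2A. Their log2 fold changes at 100 nM were -0.77 (-0.90 to -0.64) and -0.44 (-0.61 to -0.26). TNFAIP3, an inhibitor of NF-kappaB signalling, was higher, with 1372, 1660 and 2127 counts and a log2 fold change of 0.58 (0.48 to 0.67). DUSP1, a phosphatase of MAP kinases, had 55, 57 and 40 counts, and ERRFI1, an inhibitor of the EGF receptor, had 98, 109 and 129, each with an interval that spanned 0 at 100 nM.

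At 50 nM, 13 of the 22 genes were above and 9 below DMSO, with a median of 0.07. At this dose 2 were at least 2-fold higher, TSC22D3 and KLF15, where 1.81% of all tested genes were. TSC22D3 was chosen for its rise, and KLF15 passed the filter only through the 50 nM library, so nothing is read from this count. Of 14 inflammatory genes repressed through the receptor, 7 passed the filter. Of these, 6 were below DMSO at 100 nM and 4 at 50 nM, where 6487 and 6419 of all 12879 tested genes were. The list's median at 100 nM was -0.22. The interval at 100 nM lay below 0 for 3 genes and above 0 for 1, against 25.3% and 24.0% of all tested genes. ICAM1, an adhesion molecule, had 134, 137 and 104 counts and stood at -0.42 (log2) at 100 nM (-0.81 to -0.04). TNF had 677, 532 and 603 counts, with -0.22 at 100 nM (-0.38 to -0.06), and PLAU had 1138, 1044 and 1125. CCL3 and MMP9, named after their values were seen, had 21, 9 and 8 counts and 3, 11 and 12 counts. They were the 2 genes of this list past 2-fold at 100 nM, CCL3 lower (-2.83 to -0.22) and MMP9 higher (0.05 to 4.41). Over all tested genes, 1.0% were 2-fold lower and 2.84% higher. CCL3 passed the filter only through the DMSO library, and MMP9 only through the treated libraries.

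Several genes of the receptor's chaperone complex were lower, none of them by 2-fold. Of 22 genes for the receptor, its chaperones and its coregulators, 20 passed the filter and 0 reached 2-fold at either dose. Over all tested genes, 2.84% were 2-fold higher and 1.0% lower at 100 nM, and 1.81% and 0.916% at 50 nM. For this list the interval at 100 nM lay below 0 for 9 and above 0 for 6, where 25.3% and 24.0% of all tested genes did so. FKBP4, the co-chaperone that FKBP5 competes with, had 7911, 6086 and 4946 counts, or -0.73 (log2) at 100 nM (-0.79 to -0.68). The chaperone HSP90AA1 was at -0.48 (-0.49 to -0.46), and its co-chaperones STIP1 and PTGES3 were at -0.48 and -0.32, whereas the second HSP90 gene, HSP90AB1, was at -0.07 (-0.08 to -0.06). BAG1, which binds HSP70, was at -0.36 (-0.43 to -0.29). HSD11B2, which inactivates cortisol, had 49, 67 and 77 counts and a log2 fold change of 0.59 (0.06 to 1.14). HSP90AB1 and the coactivators CREBBP, NCOA3 and NCOA2 were picked out with their values known. The coactivators differed in direction, at 0.32 (0.23 to 0.42), 0.22 (0.12 to 0.33) and -0.28 (-0.38 to -0.18).

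Of 45 genes induced by FOXO factors, 5 of them among the 10 genes and 7 also in the glucocorticoid list, 34 passed the filter. At 100 nM 17 were above and 17 below DMSO, the same split as at 50 nM, and the medians were -0.0041 and -0.0019. At each dose, TSC22D3 and KLF2 rose past 2-fold, where 2.84% of all tested genes did so at 100 nM and 1.81% at 50 nM. KLF2, a transcription factor of quiescent lymphocytes named after its values were seen, had 9, 23 and 30 counts. It passed the filter only through the treated libraries. FBXO32, a ubiquitin ligase subunit known as atrogin-1, had 76, 94 and 145 counts, or 0.87 (log2) at 100 nM (0.46 to 1.30), and BBC3, which encodes the proapoptotic protein PUMA, was at 0.60 (0.42 to 0.79).

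Other FOXO targets were lower at 100 nM. GABARAPL1, an autophagosome protein, had 63, 39 and 34 counts and a log2 fold change of -0.94 (-1.59 to -0.32). TXNIP, a thioredoxin-binding arrestin that also responds to glucose, had 2017, 982 and 1214 counts and stood at -0.79 (-0.89 to -0.69) at 100 nM. At 50 nM it was the only gene of this list to fall at least 2-fold, where 0.916% of all tested genes did so. IL7R, the interleukin-7 receptor, was at -0.62 (-0.96 to -0.28), and TNFSF10, the death ligand TRAIL, at -0.58 (-0.94 to -0.23). Over the list, the interval lay above 0 for 11 and below 0 for 9 of the 34 genes at 100 nM, where 24.0% and 25.3% of all tested genes did so, and nothing particular to the list is read from these counts.

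In the signalling that controls FOXO, 32 of 35 genes passed the filter, of which 16 were above and 16 below DMSO at 100 nM, with a median of -0.03. TRIB3, a pseudokinase that binds AKT and is also an ATF4 target, rose by 1.18 on the log2 scale (1.10 to 1.26), with 1739, 2480 and 4101 counts. IRS1, the paralogue of IRS2, had 76, 48 and 38 counts and fell by 1.05 on the log2 scale at 100 nM (interval -1.66 to -0.48). SKP2, a ubiquitin ligase subunit that targets FOXO1, was at -0.56 (-0.69 to -0.44). The kinase gene PIK3CA was at 0.47 (0.27 to 0.66), and the deacetylase SIRT1 at 0.34 (0.23 to 0.46). TRIB3 and IRS1 were the only genes of this list past 2-fold at 100 nM, and at 50 nM 0 genes were. Over all tested genes, 2.84% were 2-fold higher and 1.0% lower at 100 nM, and 1.81% and 0.916% at 50 nM. The call of IRS1 was lost with 5 counts added to each library.

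**Figure D3:**
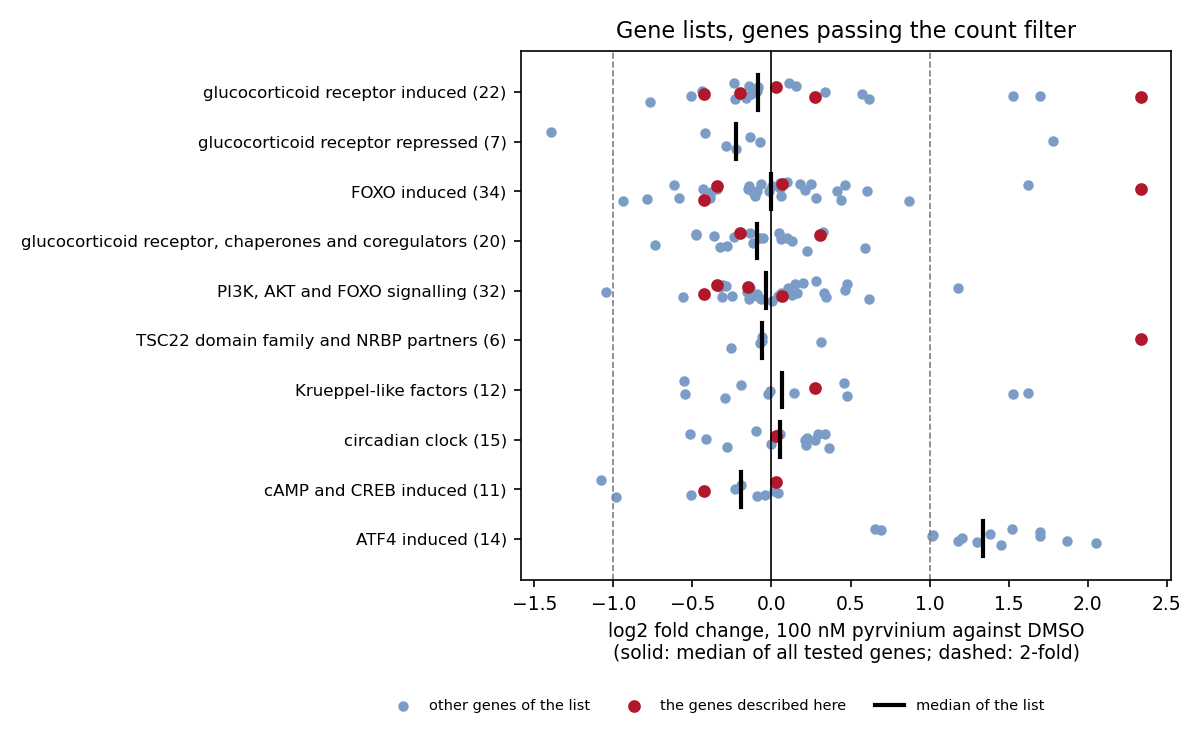
Log2 fold change at 100 nM against DMSO (x axis) of every gene that passed the count filter, by gene list with the number of genes in parentheses. The genes described here that passed, which leaves out FOXO1, are in red, other genes in blue, and the bar is each list's median. The marker lists are not shown. The glucocorticoid and FOXO medians lie at -0.09 and -0.0041, next to -0.0023 for all tested genes, and the ATF4 median lies at 1.34. All lists were written with earlier results of these data known.

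The families of TSC22D3, KLF9 and PER1 showed no common direction. TSC22D1, TSC22D2 and TSC22D4, the paralogues of TSC22D3, and their partners NRBP1 and NRBP2 all passed the filter, and none reached 2-fold. TSC22D2 had 223, 256 and 289 counts, or 0.32 (log2) at 100 nM (0.06 to 0.58), and TSC22D1 had 615, 516 and 535, with -0.26 (-0.43 to -0.09). TSC22D4 had 1240, 1075 and 1240 counts, with an interval at 100 nM from -0.17 to 0.06. Of 17 Krüppel-like factors, 12 passed, 6 of them above and 6 below DMSO. The only ones at 2-fold were KLF2 and KLF15, each with at most 30 counts. They passed the filter only through treated libraries, so nothing is read from this count. Over all tested genes, 2.84% were 2-fold higher and 1.0% lower at 100 nM, and 1.81% and 0.916% at 50 nM. KLF4 and KLF10 were both at -0.55, KLF11 was at -0.30, and KLF6 was at 0.46 (0.32 to 0.60). Of 19 clock genes 15 passed, 10 of them above and 5 below DMSO at each dose, and 0 reached 2-fold. Of all tested genes, 49.6% were above DMSO at 100 nM and 50.2% at 50 nM. CIART and BHLHE40, which repress the clock's activators, were at -0.52 and -0.41, each with an interval below 0, and HLF and NR1D2 at 0.37 (0.06 to 0.67) and 0.29 (0.11 to 0.48).

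A pair of further programs was set beside these. PER1 and IRS2 are also induced through cAMP and CREB, and of 15 genes of that program 11 passed. At 100 nM 8 of these were below DMSO, with a median of -0.19, where 6487 of all 12879 tested genes were below. CREM, SIK1, FOS and RGS2, well-known CREB targets, had log2 fold changes at 100 nM of -0.09, -0.04, 0.04 and -0.23, each with an interval that spanned 0. NR4A1, a nuclear receptor named after its values were seen, was the only gene of this list at 2-fold at 100 nM, with 31, 19 and 15 counts. It was lower, with an interval from -2.10 to -0.17, where 1.0% of all tested genes were 2-fold lower. ATF4 is the transcription factor of the integrated stress response, and of 15 ATF4 targets the 14 that passed were all above DMSO at each dose. Of these 14, 12 were called higher at the upper dose and 3 at the lower, where 2.84% and 1.81% of all tested genes were. The medians were 1.34 and 0.86. That list was written with earlier results of these data known, and holds genes the paper reported as raised, such as CTH, CHAC1 and ASNS. Its counts are therefore a description, and the part of ATF4 in the rise of TSC22D3 was not tested. None of the 10 genes is in that list, and TSC22D3, at 2.34, lay above its highest gene, CHAC1, at 2.05 (1.72 to 2.41), with intervals that overlapped.

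The 10 genes whose pair of log2 fold changes, at 50 nM and at 100 nM, lay closest to that of TSC22D3 were taken from the other 11048 genes with at least 50 counts. The measure was the straight-line distance between the pairs, over 3 libraries in which both changes share the DMSO library. The closest were MFAP4, CCT6B and VLDLR-AS1, at distances of 0.156, 0.192 and 0.194, followed by NLRP12, CHAC1, SERPINI1, CTH, ADM2, ZMAT1 and LINC00886, at 0.314 to 0.689. MFAP4, a microfibril protein, had 17, 49 and 98 counts, and CCT6B, a chaperonin subunit otherwise typical of testis, had 12, 41 and 73. Their intervals at 100 nM were wide, from 1.72 to 3.31 and from 1.66 to 3.56, so the order of the closest genes is uncertain. MFAP4, CCT6B and VLDLR-AS1 (11, 39 and 65 counts) reached 50 counts only in the 100 nM library, and SERPINI1 only in the treated libraries. These genes thus entered the comparison only through libraries in which they were high. NLRP12, a member of the NLR family of innate immune regulators, had counts near those of TSC22D3, with 107, 288 and 478. CHAC1, which degrades glutathione, had 88, 219 and 382, and CTH, the enzyme that makes cysteine from cystathionine, had 241, 591 and 919. ADM2, a peptide hormone, had 63, 141 and 246 counts. VLDLR-AS1 is an antisense RNA, and reads from it and from genes on the other strand cannot be told apart if the strand was not used. Of the 8 further genes of the glucocorticoid and FOXO set that had at least 50 counts, the nearest was KLF9, at a distance of 2.50, which placed it 1479th. The measure uses the changes for which TSC22D3 was chosen, so the closest genes are other large rises and a gene with a small change lies far away. The rank of KLF9 therefore restates its small change, and a shared program was not tested.

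**Figure D4:**
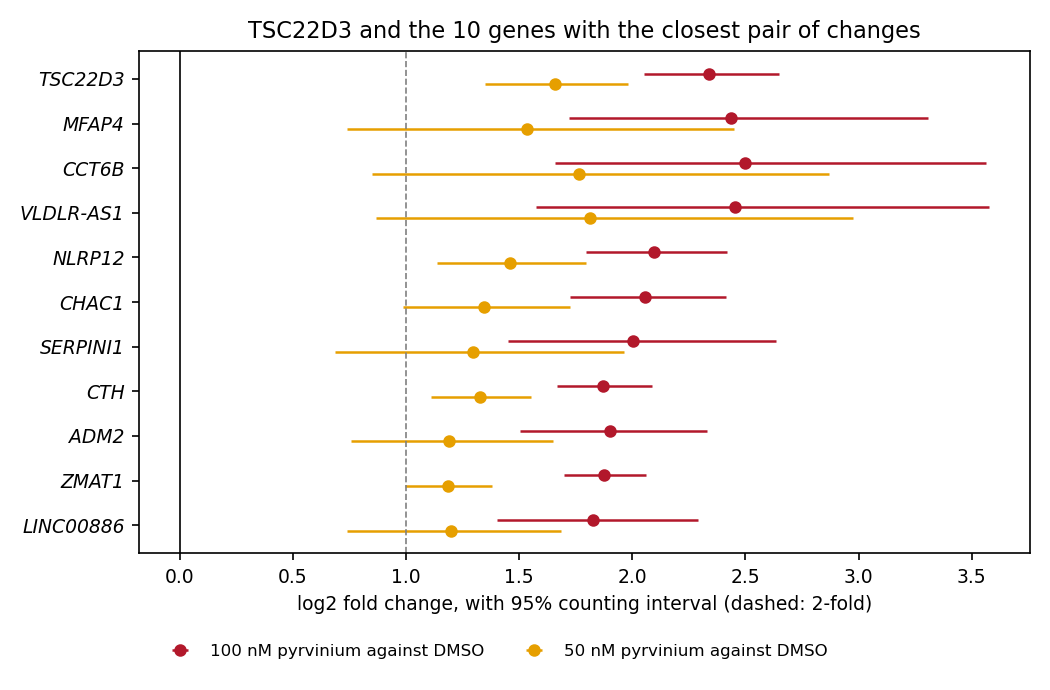
Log2 fold change (x axis) of TSC22D3 and of the 10 genes with the closest pair of changes, at 50 nM and at 100 nM against the same DMSO library, with 95% counting intervals and a dashed line at 2-fold. At 100 nM these 10 genes lie between 1.83 and 2.50, around the 2.34 of TSC22D3.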

How the data were processed

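RNA of Molm13 cells was sequenced as paired 75-base reads from strand-specific mRNA libraries, 1 per condition. The deposited counts are whole reads per gene, not normalized, which the authors obtained after alignment to hg19 (Rsubread). Versions, and whether counting used the strand, are not given in the sources used here. The authors also deposited their own EBSeq comparisons, with posterior probabilities, fold changes and means, which were not used.

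Entrez identifiers were matched to RefSeq symbols (23696 of 25702), and gene positions are as the deposited tables list them, on hg19. TMM factors came from edgeR 4.0.16 in R 4.3.3. A gene needed 10 counts in any library. To each count 0.5 was added before log2 fold changes. Exact 95% intervals of the count ratio were computed with scipy 1.17.1. They cover counting error only, and hold for these libraries, not the conditions. A gene was called at 2-fold. Levels between genes were divided by the deposited gene length. A floor of 3 counts is 1.25e-05% to 1.32e-05% of a library's total.

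The 10 genes and all 12 gene lists, written from general knowledge, were chosen with earlier results of these data known. Named are the 10 genes, up to 6 others per list with the largest absolute change at 100 nM among those with at least 50 counts, and the 10 genes closest to TSC22D3, and any other gene was picked with its values known. A gene that this rule names is not reported here. The alternatives comprised size factors of DESeq2 1.42.0, scaling to total counts, TMM without mitochondrial genes, filters of 1 and 50 counts, 5 counts added, 1.5-fold, 2-fold with an interval beyond no change, and FOXO3 summed with FOXO3B. The procedure was tested on simulated data drawn with counting error alone, so that test does not address the spread between cultures.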

Additional observations from a re-analysis of the deposited data

How the results depend on the processing

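No paired analysis was possible because there is 1 library per condition, and for the same reason no library was left out. The 3 other scalings moved no log2 fold change of the 9 genes by more than 0.0036, and 74 of 74 recomputed values of these genes stayed within their counting intervals. TSC22D3 was the only one of them called under every alternative with at least 10 counts, whereas with a filter of 1 count the genes called higher at 100 nM became 2, since FOXO1 then entered.

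The number of genes at 2-fold depended on how low counts were treated. With a filter of 1 count, calls over all genes at 100 nM became 1667 higher and 945 lower, and at 50 nM 1433 and 1019. Under it, calls at 100 nM became 9 higher and 3 lower among genes induced through the glucocorticoid receptor, 5 and 1 among FOXO targets, 2 higher in PI3K and AKT signalling, 1 higher in the clock and 3 higher in the cAMP list. At 50 nM they became 7 and 2 for glucocorticoid-induced genes, 3 and 2 for repressed genes, 1 lower among receptor and chaperone genes, 1 and 1 in PI3K and AKT signalling, 1 higher in the clock and 4 higher in the cAMP list. With a filter of 50 counts, calls over all genes fell to 117 higher and 29 lower at 100 nM and to 34 and 11 at 50 nM. Calls then became 0 at both doses among glucocorticoid-repressed genes (higher and lower), Krüppel-like factors (higher) and the cAMP list (lower), 1 higher among FOXO targets at both doses, and 1 higher among glucocorticoid-induced genes at 50 nM. With 5 counts added, calls over all genes were 220 higher and 56 lower at 100 nM, and 105 and 38 at 50 nM. IRS1 was then no longer called (0 lower in its list), Krüppel-like factors had 1 higher at 100 nM, the cAMP list had 0 lower at both doses, and repressed genes had 0 lower at 50 nM. A threshold of 1.5-fold gave 984 higher and 546 lower at 100 nM and 618 and 392 at 50 nM. Requiring the interval to lie beyond no change gave 76 lower at 100 nM, and 131 higher and 60 lower at 50 nM. The 3 other scalings and the addition of 5 counts did not change the direction of TSC22D3, the only called gene whose direction was compared.

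With 1 library per condition, the depth bounds counting error alone, and the spread between cultures is unknown. FOXO1, KLF15 and KLF2, all under 50 counts, have wide intervals, and their ratios depend on the counts added.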
